A study of Mus musculus with 5 samples.

Results

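The genes described here encode 6 subunits of the AMP-activated protein kinase (AMPK) and 3 enzymes that make or remove malonyl-CoA. The AMPK genes were Prkaa1, Prkaa2, Prkab1, Prkab2, Prkag1 and Prkag2, and the malonyl-CoA genes were Acaca, Acacb and Mlycd. They were chosen by name, with earlier results of these data known. Each was read from the probe set that the platform annotation assigns to that gene symbol alone. Every one of the 9 genes had 1 such probe set, and all 9 stood above the filter on dim genes that left 15528 of 22180 genes to be tested.

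Heart RNA was measured on 5 whole-transcript microarrays, 2 from Akita and 3 from wild type mice. Akita hearts (replicates 1 and 3) came from male mice aged 12 weeks that carry a mutation in Ins2, an insulin gene, written as Ins2+/- in the series' design and described in the labels as a model of type 1 diabetes. Wild type hearts (replicates 3, 4 and 5) came from male mice of the same age, and both groups had the C57BL/6 background. The mutation is present in every tissue, the labels do not say which chambers were taken or whether each array stands for a separate animal, and p-values therefore measure only the spread between these samples.

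AMPK is a heterotrimer of a catalytic alpha subunit, a scaffolding and glycogen-binding beta subunit and a nucleotide-sensing gamma subunit, and it is activated when cellular energy falls. A well-known substrate is acetyl-CoA carboxylase, which makes malonyl-CoA and is inhibited by this phosphorylation. Malonyl-CoA blocks carnitine palmitoyltransferase 1, the entry step of long-chain fatty acids into mitochondria, and malonyl-CoA decarboxylase removes it, so in heart muscle these enzymes help to set the rate at which fatty acids are burned. Transcript levels say nothing about phosphorylation, through which much of this control runs.

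No transcript of the set passed the test between Akita and wild type hearts. By limma, with p-values adjusted by the Benjamini-Hochberg method over every gene tested, 0 of 9 members had an adjusted p under 0.05, where 0.328% of all genes did. At an unadjusted p under 0.05, 1 of 9 members was called, Prkab2, against 13.6% of all genes. It lay lower in Akita hearts, as did 9.49% of all genes at that threshold, and 0 of 9 members were called higher, against 4.13% of all genes. Of the AMPK subunits, 5 of 6 lay lower in Akita hearts, with a median log2 difference of -0.12, and 3 of 3 malonyl-CoA genes lay slightly higher, with a median of 0.09. The median was -0.09 over the 9 members and -0.03 over all genes tested, and 8779 of the 15528 genes lay lower. In 5 of 9 members both Akita arrays lay on the same side of every wild type array, against 29.7% of all genes. Of these 5, 4 lay lower (19.9% of all genes) and 1 higher (9.89% of all genes).

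**Figure D1:**
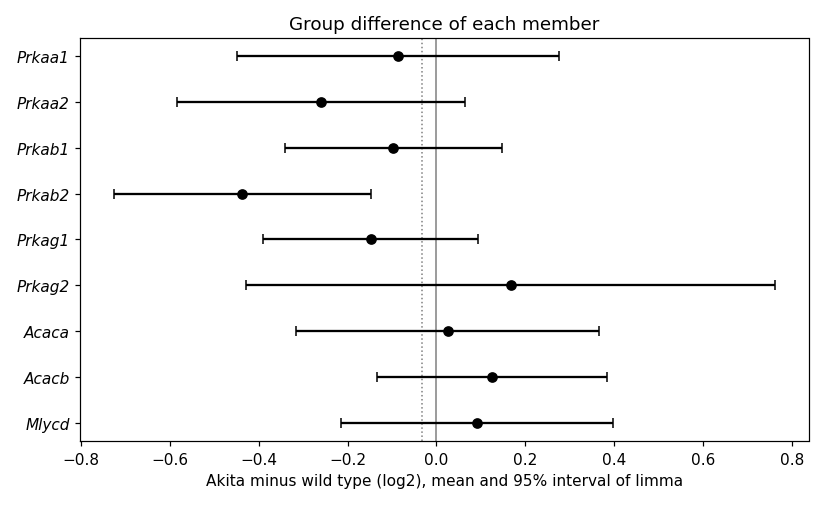
Akita minus wild type difference of each gene on the log2 scale (horizontal axis), as the limma estimate with its 95% interval; the solid line is 0 and the dotted line the median over all genes tested, -0.03. The interval of Prkab2, from -0.73 to -0.15, lies below 0, and those of the other 8 genes include 0.

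The scaling of the arrays bears on these small differences. Centring each array on its median over all probe sets moved the median over all genes tested to -0.12, and centring on the median over the genes tested moved it to 0.06. With the first, 5 of 6 AMPK subunits lay lower. With the second, an alternative chosen after seeing the data, it was 4 of 6, since Prkaa1 turned to 0.0075 and Prkab1 stood at -0.0025. Over the genes above the 50th percentile of signal, which include all 9 members, the median difference was -0.07.

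Among the catalytic subunits, Prkaa2 encodes the alpha2 isoform, the main one of heart and skeletal muscle. Its log2 signal was 10.30 on the first Akita array (replicate 1) and 10.46 on the other (replicate 3), against 10.84, 10.50 and 10.58 on the wild type arrays (replicates 3, 4 and 5). Other genes are given in the same order of replicates. Both Akita arrays lay below all wild type arrays, but the nearest arrays of the groups were 0.04 apart, less than the wild type range of 0.34. The log2 difference was -0.26 (SE 0.14, adjusted p = 0.464 by limma), with a 95% interval from -0.58 to 0.06. Prkaa1, the widely expressed alpha1 isoform, had 8.18 and 8.58 in the Akita arrays, against 8.63, 8.38 and 8.39 in the wild type arrays. The groups overlapped, with Akita replicate 3 within the wild type range and replicate 1 below it. The log2 difference was -0.09 (SE 0.16, adjusted p = 0.855), with an interval from -0.45 to 0.28, and it became 0.11 without Akita replicate 1.

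**Figure D2:**
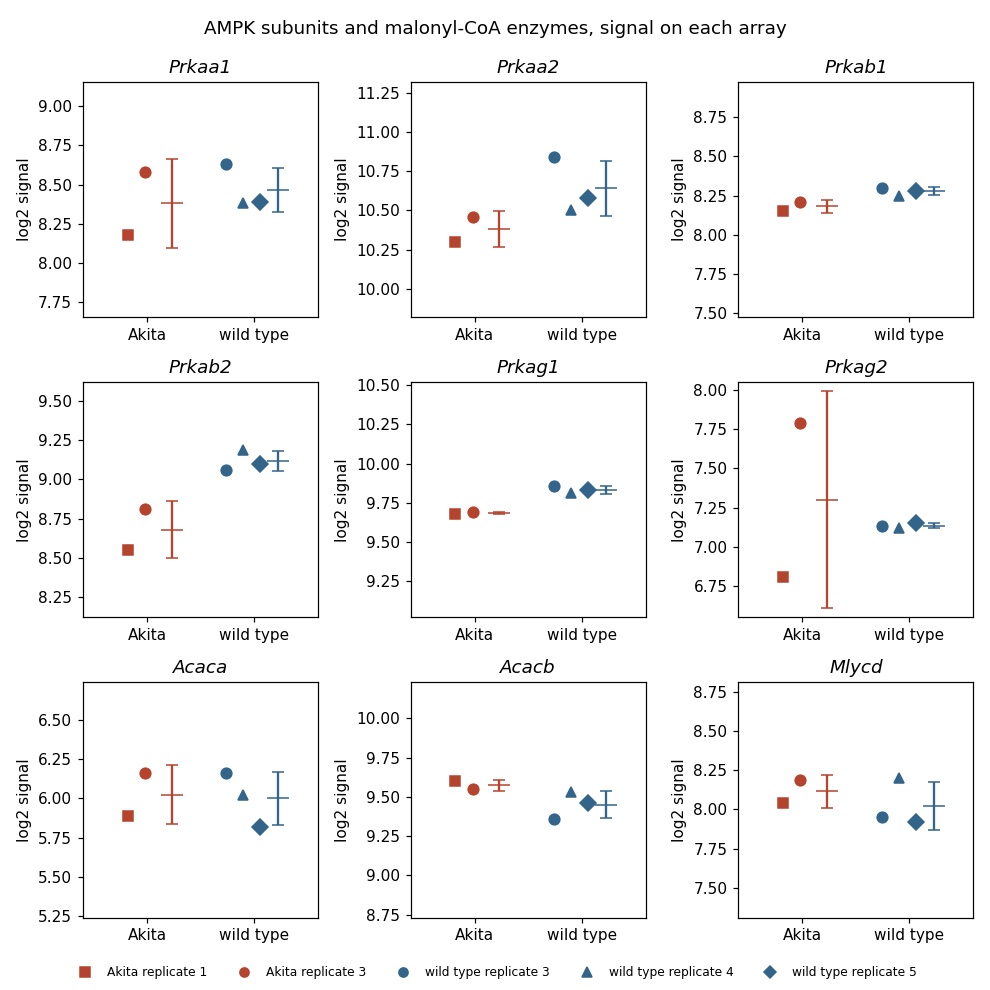
Log2 signal (vertical axes, all of the same span) of the 9 genes on each array, with Akita to the left of wild type; symbols are single arrays, and the dash and bars beside them are the mean and SD. Prkab2, Prkag1, Prkab1 and Prkaa2 show both Akita arrays below all wild type arrays, and Prkag2 shows the Akita arrays on both sides of a narrow wild type group.

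Of the 9 genes, Prkab2 had the smallest p. It encodes beta2, the beta subunit prominent in cardiac and skeletal muscle, and had 8.55 and 8.81 in the Akita arrays, against 9.06, 9.19 and 9.10 in the wild type arrays. Both Akita values were below every wild type value, and the distance of 0.25 between the closest arrays of the groups was about as large as the 0.26 between the Akita arrays. Akita hearts averaged 8.68 ± 0.18 (SD, n = 2) and wild type hearts 9.12 ± 0.07 (SD, n = 3), a ratio of 0.739 with a 95% interval from 0.604 to 0.903. The log2 difference was -0.44 (SE 0.12, adjusted p = 0.224 by limma). Its unadjusted p of 0.00884 ranked 613 among the 15528 genes. It stayed negative in each of the 14 alternatives run, from -0.57 to -0.31, with adjusted p from 0.0823 to 0.566. Without Akita replicate 1 its unadjusted p was 0.0552, so that it was not called at 0.05.

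Prkab1, the beta1 isoform that many tissues use, had 8.15 and 8.21 in the Akita arrays, against 8.30, 8.25 and 8.28 in the wild type arrays. The groups did not overlap, but the log2 difference was only -0.10 (SE 0.10, adjusted p = 0.728). Its arrays were among the least variable, with a wild type range of 0.05, as small or smaller in 4.94% of all genes. Within each array, Prkab2 minus Prkab1 was 0.40 and 0.60 in the Akita hearts, against 0.76, 0.94 and 0.82 in the wild type hearts. The Akita values were the lower 2 of the 5, and the change in this difference was -0.34. An exact two-sided permutation test of 2 against 3 arrays gave p = 0.1 (0.5 after adjustment over 5 such pairs), and 0.1 is the smallest p that these 10 arrangements allow.

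The promoter windows of the beta pair are shown because Prkab2 carried the largest difference of the set and Prkab1, its partner, a small one. They are RefSeq sequences of GRCm38.p6, from 250 bases before to 50 bases after the annotated start, written 5′ to 3′ on the gene's strand. Prkab2 lies at chr3:97657962-97658261 on the plus strand and Prkab1 at chr5:116024379-116024678 on the minus strand. Capitals mark the GC box, GGGCGG on either strand.
Prkab2: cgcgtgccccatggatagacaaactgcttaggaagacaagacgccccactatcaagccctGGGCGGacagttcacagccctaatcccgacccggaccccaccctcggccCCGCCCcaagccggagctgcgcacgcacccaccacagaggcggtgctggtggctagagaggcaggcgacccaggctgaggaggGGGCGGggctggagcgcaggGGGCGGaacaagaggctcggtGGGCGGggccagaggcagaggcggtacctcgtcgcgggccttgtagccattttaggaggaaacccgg
Prkab1: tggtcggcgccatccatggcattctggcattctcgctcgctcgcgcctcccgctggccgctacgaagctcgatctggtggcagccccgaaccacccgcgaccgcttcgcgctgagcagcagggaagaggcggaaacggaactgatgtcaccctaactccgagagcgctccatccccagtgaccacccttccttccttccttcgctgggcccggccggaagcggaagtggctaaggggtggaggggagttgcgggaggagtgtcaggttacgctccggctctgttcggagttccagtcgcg
The Prkab2 window held 5 GC boxes and the Prkab1 window 0, counting overlapping matches, while 35.7% of the 32851 windows in the table held at least 1. Prkaa1, with a log2 difference of -0.09, also held 5, Prkaa2 and Prkag1 held 2 each, and Acaca, Acacb and Mlycd held 0. The GC content was 68% for Prkab2 and 65.3% for Prkab1, against a median of 52.7% over all windows. The presence of these letters is a description of the windows and was not tied to the expression values.

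Among the gamma subunits, Prkag1, which encodes the gamma1 subunit found in most AMPK complexes, had 9.68 and 9.69 in the Akita arrays, against 9.86, 9.81 and 9.83 in the wild type arrays. Both groups were narrow and did not overlap. The log2 difference was -0.15 (SE 0.10, adjusted p = 0.574), a ratio of 0.902 with an interval from 0.763 to 1.07, and limma's moderated error was larger than the SDs of 0.01 (n = 2) and 0.03 (n = 3) of the arrays themselves. An ordinary linear model without moderation gave an unadjusted p of 0.00446 for this gene and 0.303 after adjustment.

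Prkag2 encodes gamma2, whose mutations in humans cause a cardiomyopathy with glycogen storage and ventricular pre-excitation. It had 6.81 in Akita replicate 1 and 7.79 in Akita replicate 3, against 7.13, 7.12 and 7.15 in the wild type arrays. The Akita arrays lay on either side of the wild type group, 0.32 below and 0.66 above its mean, so the mean difference of 0.17 (SE 0.25, adjusted p = 0.823) describes neither array. Without Akita replicate 3 the difference was -0.32, and without Akita replicate 1 it was 0.66 (adjusted p = 0.213 and 0.146). The distance of 0.98 between the Akita arrays was matched or exceeded by 0.857% of the genes tested, and the wild type range of 0.03 was as small or smaller in 2.06%.

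Markers of several cell types also differed between the Akita arrays. No tested marker of any list passed the adjusted threshold. Lists for brown adipocytes and erythroid cells, whose sums overlapped between the groups, were read too and are not detailed here. All 7 atrial myocyte markers lay higher in the Akita mean, with a list median of -0.17 in Akita replicate 1 and 2.36 in replicate 3 relative to the wild type mean. Their summed signal ran from 12.41 to 14.05 in Akita hearts and from 12.18 to 12.28 in wild type hearts, on the log2 scale, and all 7 stood above the dim filter. For epicardium and mesothelium, 4 of 6 markers lay higher, with medians of 0.08 and 0.82 and summed signals from 8.09 to 8.80 in Akita hearts and from 8.01 to 8.04 in wild type hearts. For cardiac fibroblasts it was 7 of 8, with medians of 0.06 and 0.62 and sums from 12.33 to 12.72 in Akita hearts and 12.23 to 12.27 in wild type hearts. Smooth muscle and pericyte markers lay higher in 5 of 6 cases, with medians of -0.23 and 0.27 and overlapping sums. For endothelial cells it was 6 of 7, with medians of 0.04 and 0.24. Endothelial sums ran from 13.1 to 13.21 in Akita hearts and from 12.88 to 12.99 in wild type hearts. For white adipocytes it was 6 of 7, with medians of 0.33 and 0.53 but lower sums in Akita hearts. Only 5 of these markers stood above the dim filter, with Adipoq and Lep under it. Their sums, 12.73 to 12.74 in Akita hearts and 12.78 to 12.82 in wild type hearts, were close to the brightest marker's mean of 12.73. Liver markers lay higher in 5 of 5 cases, with medians of 0.42 and 0.06, and 2 stood above the filter. Liver sums ran from 6.73 to 7.04 in Akita hearts and from 6.50 to 6.70 in wild type hearts. The part of these lists in the Prkag2 values was not tested. Cardiac myocyte markers lay lower in 8 of 8 cases, with medians of -0.07 and -0.12, where those over all genes tested were -0.07 and -0.01. Sums of the myocyte markers ran from 15.45 to 15.46 in Akita hearts and from 15.52 to 15.56 in wild type hearts. All 8 were bright, with mean signals from 8.52 to 13.18, as the tissue label would have it. Of 7 macrophage markers, 5 lay lower and 1 higher, with medians of -0.41 and -0.14 and sums from 10.72 to 10.90 in Akita hearts and from 10.91 to 11.03 in wild type hearts. Of 7 skeletal muscle markers, 5 lay higher and 2 lower, with medians of -0.18 and -0.0033. Their sums were lower, from 11.36 to 11.55 in Akita hearts and from 11.59 to 11.78 in wild type hearts. Only 4 of the 7 stood above the dim filter, and the brightest had a mean of 11.55. The part of these in the lower values of Prkaa2, Prkab1, Prkab2 and Prkag1 was not tested, and in bulk tissue a different number of cells of a type and a different amount of RNA per cell cannot be told apart.

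**Figure D3:**
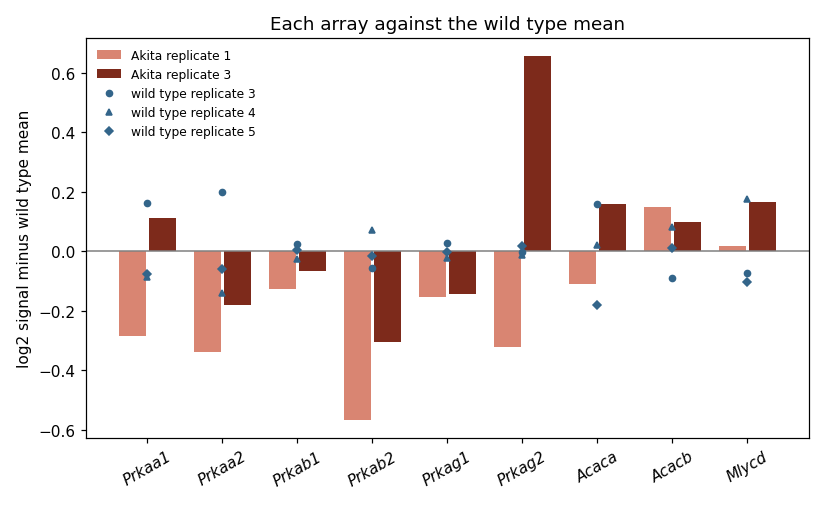
Log2 signal of each array minus the wild type mean (vertical axis) for the 9 genes; bars are the Akita arrays and small symbols the wild type arrays. The bars of Prkag2 point in opposite directions, at -0.32 and 0.66, while those of Prkaa2, Prkab1, Prkab2 and Prkag1 both point down.

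The RefSeq table used here gives 3 start windows for Prkag2 and 1 for each of the other 8 genes, and the array reports a single value for all transcripts that its probe set covers. The windows at these starts are shown because the Prkag2 values differed between the Akita arrays and the signal cannot be assigned to 1 of the starts. They lie on the minus strand of GRCm38.p6 at chr5:25100593-25100892, chr5:24995704-24996003 and chr5:24908460-24908759, with the GC box again in capitals.
Prkag2 window 1: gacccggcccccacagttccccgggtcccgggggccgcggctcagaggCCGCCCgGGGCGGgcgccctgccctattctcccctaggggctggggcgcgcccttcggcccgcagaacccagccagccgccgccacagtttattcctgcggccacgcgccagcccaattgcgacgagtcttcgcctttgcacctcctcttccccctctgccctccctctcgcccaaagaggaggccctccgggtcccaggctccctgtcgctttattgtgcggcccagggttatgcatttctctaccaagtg
Prkag2 window 2: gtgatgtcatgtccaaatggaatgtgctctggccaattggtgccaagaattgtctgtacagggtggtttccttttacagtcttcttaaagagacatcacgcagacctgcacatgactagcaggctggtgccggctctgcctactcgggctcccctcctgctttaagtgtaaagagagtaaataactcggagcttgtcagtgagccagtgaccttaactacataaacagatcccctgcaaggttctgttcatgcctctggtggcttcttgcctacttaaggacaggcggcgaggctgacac
Prkag2 window 3: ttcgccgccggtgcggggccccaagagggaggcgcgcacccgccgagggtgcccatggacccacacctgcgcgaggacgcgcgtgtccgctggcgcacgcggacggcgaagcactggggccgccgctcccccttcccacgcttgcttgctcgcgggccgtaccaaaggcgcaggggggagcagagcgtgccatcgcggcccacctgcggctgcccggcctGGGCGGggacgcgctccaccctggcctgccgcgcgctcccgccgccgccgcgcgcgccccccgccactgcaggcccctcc
The GC boxes numbered 2, 0 and 1 in these windows, and the GC content was 69.7%, 50.3% and 79.3%. Over the 11 windows of the 9 genes, the E-box CACGTG and the FoxO element GTAAACA, each sought on both strands, were found in 0. In all windows of the table the E-box was found in 7.15% and the FoxO element in 3.65%. The CCAAT box, CCAAT on either strand, was present once in the first Prkag2 window and at 2 positions in the second, and 37.4% of all windows held it. The windows of Prkag1 and Acacb held 1 each and that of Mlycd 3.

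The gamma pair followed Prkag2. Prkag2 minus Prkag1 was -2.87 in Akita replicate 1 and -1.90 in Akita replicate 3, against -2.73, -2.69 and -2.68 in the wild type arrays. The Akita arrays again lay on both sides, and the change of 0.32 had an exact permutation p = 0.7. For the alpha pair, Prkaa2 minus Prkaa1 was 2.12 and 1.88 in Akita hearts, against 2.21, 2.12 and 2.19 in wild type hearts. Akita replicate 1 equalled the lowest wild type array and replicate 3 lay below it, with a change of -0.17 and exact permutation p = 0.2. Prkag3, which encodes the gamma3 subunit of fast skeletal muscle, is not in the set. Its signal was lower than that of the members but above the dim filter. It had 4.96 and 4.66 in the Akita arrays, against 5.12, 5.07 and 5.27 in the wild type arrays. Both Akita arrays lay below all wild type arrays, as in 19.9% of all genes. The log2 difference was -0.34 (SE 0.13, unadjusted p = 0.0361 and adjusted p = 0.332 by limma). At an unadjusted p under 0.05, 9.49% of all genes lay lower.

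**Figure D4:**
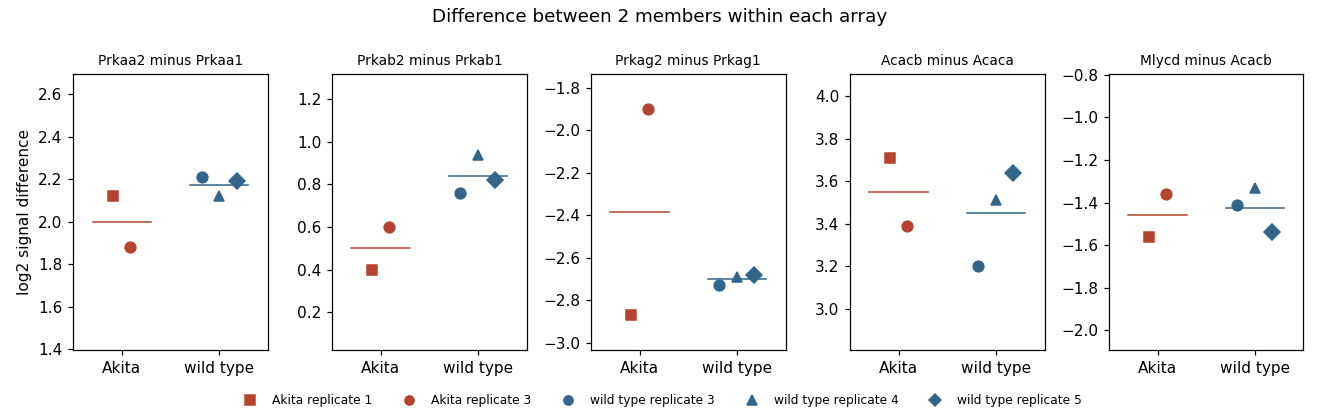
Difference in log2 signal between the named genes within each array (vertical axes, all of the same span), Akita left and wild type right; symbols are single arrays and lines group means. Of the 5 pairs, only for Prkab2 minus Prkab1 do the groups stand apart, at 0.40 and 0.60 in Akita hearts against 0.76 to 0.94 in wild type hearts.

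Genes of malonyl-CoA lay close to the wild type level. Acacb encodes acetyl-CoA carboxylase 2, the mitochondria-associated isoform whose malonyl-CoA acts on fatty acid entry, and had 9.60 and 9.55 in the Akita arrays, against 9.36, 9.53 and 9.46 in the wild type arrays. Both Akita arrays were above all wild type arrays, with 0.02 between the nearest arrays of the groups. The log2 difference was 0.13 (SE 0.11, adjusted p = 0.666), a ratio of 1.09 with an interval from 0.911 to 1.31. Acaca, the cytosolic carboxylase of fatty acid synthesis, had 5.89 and 6.16 in the Akita arrays, against 6.16, 6.02 and 5.82 in the wild type arrays. The groups overlapped fully, with a log2 difference of 0.03 (SE 0.15, adjusted p = 0.958) and an interval from -0.32 to 0.37.

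Mlycd, which encodes malonyl-CoA decarboxylase, had 8.04 and 8.19 in the Akita arrays, against 7.95, 8.20 and 7.92 in the wild type arrays. The Akita values lay within the wild type range, and the log2 difference was 0.09 (SE 0.13, adjusted p = 0.807), a ratio of 1.07 with an interval from 0.862 to 1.32. Mlycd minus Acacb, which sets removal of malonyl-CoA against its synthesis near mitochondria at the transcript level, was -1.56 and -1.36 in Akita hearts, against -1.41, -1.33 and -1.54 in wild type hearts. Acacb minus Acaca was 3.71 and 3.39 in Akita hearts, against 3.20, 3.51 and 3.64 in wild type hearts. The groups overlapped in both, with changes of -0.03 and 0.10 and exact permutation p = 0.7 each, and the sign turned in 3 of 9 alternatives for the first and 2 of 9 for the second.

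Genes that act beside the set were followed in 4 lists, in which 0 genes passed the adjusted threshold in either direction. The lists were chosen with earlier results of these data known. Their shares beside those of all genes are therefore descriptions, and the part of that choice in them was not tested. Among 20 regulators of AMPK, with Prkag3 counted among them, 10 lay higher and 10 lower, with a median of -0.00083, and 5 had an unadjusted p under 0.05, all 5 lower (25% of the list, against 13.6% of all genes). Stradb and Strada, pseudokinase partners of the upstream kinase LKB1, had log2 differences of -0.42 (SE 0.11, adjusted p = 0.203) and -0.61 (SE 0.20, adjusted p = 0.278). Stradb stood at 7.51 and 7.48 in the Akita arrays, against 7.98, 7.82 and 7.93 in the wild type arrays, and did not overlap. Stk11, which encodes LKB1 itself, differed by 0.0017 (SE 0.11), and Camkk2, the calcium-dependent upstream kinase, by 0.11 (SE 0.14), both named after their values were seen. Cblb, a ubiquitin ligase, differed by -0.35 (adjusted p = 0.251).

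The AMPK-related kinases, most of which LKB1 also activates, lay lower in 10 of 10 tested genes, with a median of -0.31. Of the 13 listed, Brsk1 and Brsk2 had no probe set annotated to them alone, and Melk fell under the filter. Without the filter, 10 of 11 lay lower. Of the 10 tested, 5 had an unadjusted p under 0.05, and 6 did not overlap between groups, against 13.6% and 29.7% of all genes. The share without overlap was 40% for the AMPK regulators, 52.6% for the AMPK substrates and 53.3% for malonyl-CoA supply and use. Nuak2 had 4.91 and 4.86 in the Akita arrays, against 5.46, 5.39 and 5.55 in the wild type arrays (log2 difference -0.58, SE 0.11, adjusted p = 0.119). Sik1, a salt-inducible kinase, had 8.15 and 7.81 in the Akita arrays, against 8.44, 8.59 and 8.62 in the wild type arrays (log2 difference -0.57, SE 0.14, adjusted p = 0.177). Mark4, a microtubule-affinity kinase, differed by -0.41 (adjusted p = 0.242). With the arrays centred on the median over the genes tested, 8 of the 10 lay lower and the median was -0.22. Without Akita replicate 1 it was 8 of 10 as well, with a median of -0.20.

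Of 19 substrates of AMPK, 14 lay lower and 5 higher, with a median of -0.15, and 7 had an unadjusted p under 0.05, 1 higher and 6 lower (36.8% of the list, against 13.6% of all genes). The higher one was Txnip, an inhibitor of glucose uptake, at 11.72 and 12.13 in the Akita arrays, against 11.02, 11.24 and 11.23 in the wild type arrays (log2 difference 0.76, SE 0.15, adjusted p = 0.135). Gys1, muscle glycogen synthase, had 9.18 and 9.21 in the Akita arrays, against 9.76, 9.64 and 9.67 in the wild type arrays (log2 difference -0.50, SE 0.11, adjusted p = 0.141). Pfkfb2, the cardiac enzyme that makes the glycolytic activator fructose 2,6-bisphosphate, differed by -0.46 (SE 0.11, adjusted p = 0.182). With an intensity trend and a robust prior in limma, Txnip and Gys1 passed the adjusted threshold. Without Akita replicate 1 the median of the list was -0.04 and Tbc1d1, a regulator of glucose transporter traffic named after its values were seen, passed; with all arrays it differed by 0.56 (SE 0.28, adjusted p = 0.439).

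In the list of malonyl-CoA supply and use, 11 of 15 genes lay lower and 4 higher, with a median of -0.15, and 3 had an unadjusted p under 0.05 (20% of the list, against 13.6% of all genes). Cpt1a, an isoform of the malonyl-CoA-inhibited entry enzyme, had 9.09 and 9.29 in the Akita arrays, against 8.70, 8.67 and 8.73 in the wild type arrays. The groups did not overlap, and the log2 difference was 0.49 (SE 0.11, adjusted p = 0.166); with the intensity trend and robust prior it passed the threshold. Acss2, which makes cytosolic acetyl-CoA from acetate, differed by -0.44 (SE 0.12, adjusted p = 0.222). Mid1ip1, which promotes the polymerisation of acetyl-CoA carboxylase, had 9.31 and 8.66 in the Akita arrays, against 9.65, 9.62 and 9.52 in the wild type arrays (log2 difference -0.61, SE 0.19, adjusted p = 0.245). Cpt1b, the muscle isoform, was not analysed here.

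**Figure D5:**
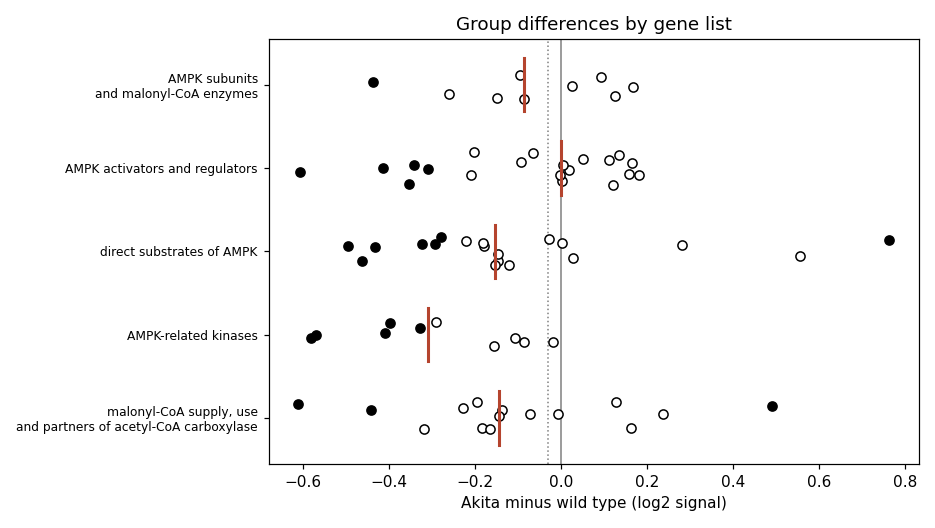
Akita minus wild type log2 difference (horizontal axis) of each tested gene in the set and in the 4 neighbouring lists; filled points have an unadjusted p under 0.05, red bars are list medians and the dotted line is the median of all genes tested. All 10 AMPK-related kinases lie left of 0 as deposited, and the list medians run from -0.31 to -0.00083.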

How the data were processed

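Values per probe set were deposited as log2 signal with 2 decimals, from 1.27 to 13.66 (the base is inferred from this range). They were made with Affymetrix Expression Console, per the submitters' processing notes; version, summarisation and normalization: not given in the sources used here. Scaling between arrays, if applied, would hide a shift common to all genes. Of 41345 probe sets, 23521 had exactly 1 gene symbol. Each gene took its brightest probe set, by the mean of the 5 arrays, and genes under the 30th percentile (log2 4.06) were left out. The 9 symbols matched a RefSeq gene table through Entrez identifiers. The Akita minus wild type contrast used limma 3.58.1 under R 4.3.3 (lmFit, eBayes, two-sided, 3 residual and 4.38 prior degrees of freedom) with Benjamini-Hochberg adjustment over 15528 genes. Array medians ran from 4.53 to 4.71; the number of arrays limits precision. Differences between 2 genes within arrays were tested by exact permutation. Likeness between genes was not computed, since 5 arrays fall short of the 6 samples a correlation needs. Named were the 9 members, Prkag3, Cpt1a and, of each list, the 3 genes of smallest p; Stk11, Camkk2 and Tbc1d1 were added after their values were seen. The members and lists were chosen with earlier results of these data known. Promoter windows were read from a RefSeq table with Python 3.11.15. Alternatives were other filters, probe set means, quantile normalization, centring, limma variants and leaving out each array.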

Additional observations from a re-analysis of the deposited data

Results flagged for a closer look

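A probe set that the annotation gives to Prkag2 and Prkag2os1 together, and that no comparison above uses, lay higher on both Akita arrays than on every wild type array. It was flagged for this pattern, which 9.89% of the genes tested also showed. Its log2 signal was 3.99 (replicate 1) and 3.74 (replicate 3) on the Akita arrays, against 3.46, 3.38 and 3.54 in the wild type arrays, a difference of 0.405. The signal was below the filter on dim genes at 4.06, the difference was not tested, and it cannot be assigned to either gene. Groups of 2 and 3 arrays are too small to call a single array an outlier. Fitted array weights were 0.676 for each Akita array and 1.07 to 1.64 for the wild type arrays. The Akita weights are equal by design, since 2 arrays always lie equally far from their mean. They cannot tell Akita replicate 1 from replicate 3. The Pearson correlation was 0.9835 between the Akita arrays and 0.9908 to 0.9915 among the wild type arrays. Between the groups it ran from 0.9776 to 0.9851.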

How the results depend on the processing

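No paired analysis was possible because the labels link no Akita sample to a wild type sample. Replicate number 3 occurs in both groups, but the labels do not say that it marks a pair. The count of members past the adjusted threshold was 0 in all 15 alternatives. All genes past it numbered 51 as reported, 28 with array weights, 84 with arrays centred on all probe sets, 30 with arrays centred on the genes tested (added after seeing the data), 197 with an intensity trend and robust prior, 86 without the filter, 0 without moderation (where 11.1% had an unadjusted p under 0.05), 96 at a threshold of 0.1 and 9 to 44 with an array left out. Calls split 41 higher and 43 lower with the first centring and 25 higher and 5 lower with the second, against 33 higher and 18 lower. Members at an unadjusted p under 0.05 numbered 2 with the intensity trend (14.7% of all genes) or quantile normalization (14.1%). They numbered 3 without moderation (11.1%) and 1 with each wild type array left out (8.36% to 12.6%). Without Akita replicate 1, which leaves 1 Akita array, the difference of Prkab2 was -0.31 and that of Prkag2 0.66. Members whose groups did not overlap numbered 3 with quantile normalization (31.9% of all genes) or with arrays centred on the genes tested (30.6%), 6 without Akita replicate 1 (54.6%) and 7 without Akita replicate 3 (67.8%). The median over the members was -0.17 and 0.0075 with the first and second centring, and -0.15 to 0.10 with an array left out. Prkaa2, Prkab1, Prkab2, Prkag1, Acacb and Mlycd kept their direction in all 14 alternatives run on them. Prkaa1 turned to 0.0075 with the second centring and Acaca to -0.06 with the first. With an array left out, Prkaa1 ran from -0.29 to 0.11 (positive without Akita replicate 1), Prkag2 from -0.32 to 0.66 (negative without Akita replicate 3) and Acaca from -0.11 to 0.16 (negative without Akita replicate 3 or wild type replicate 5). The change in Mlycd minus Acacb turned to 0.014 with quantile normalization and ran from -0.13 to 0.067 with an array left out, that in Acacb minus Acaca from -0.06 to 0.26 and that in Prkag2 minus Prkag1 from -0.17 to 0.80. The cause of these moves was not tested.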
